A study of Sus scrofa with 5 samples.

Results

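The cells described here are the C1Q cells of the neonatal pig cecum, chosen from single-cell RNA-seq of the cecal mucosa by the transcripts of the complement component C1q. A barcode was counted as a C1Q cell when it held at least 200 genes, at least 5 unique molecular identifiers (UMIs, each standing for 1 captured transcript) of C1QA, C1QB and C1QC together with at least 2 of the 3 genes detected, no more than 1 UMI of MARCO and none of EPCAM. The rule found 1427 C1Q cells among 72701 barcodes with at least 200 genes. They were selected on these 5 genes in the same cells, so the C1Q, MARCO and EPCAM values given here describe the choice and carry no test.

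The series holds 5 libraries, 1 for each of d0, d1, d7, d14 and d21 after birth, all from the cecum of full-term Large White piglets that the labels give as male and that were fed maternal milk. Each library was made from the mixed cells of 5 piglets, run in 1 lane, so the spread between animals is not known, age cannot be told apart from library, and no test between ages was possible. Mucosa was scraped and its cells were released with EDTA and a short trypsin digestion, a procedure aimed at epithelium. The number of C1Q cells therefore also depends on how many were freed from the tissue, and on how many other cells were captured.

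Macrophages are the main phagocytes of the gut wall. They depend on signalling through the receptor CSF1R, are renewed to a large extent from blood monocytes in the intestine, and clear dying cells and microbes that cross the epithelium. Many tissue macrophages make C1q, the protein that starts the classical complement pathway and that also coats dying cells for uptake. In the pig assembly Sscrofa11.1, the 3 genes for its chains lie side by side on chromosome 6, C1QA at chr6:80586259-80589213, C1QC at chr6:80592591-80597464 and C1QB at chr6:80601680-80606076. CSF1R lies at chr2:151102138-151130311 and CD163, the receptor for haemoglobin bound to haptoglobin, at chr5:63300200-63334497.

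C1Q cells were most frequent at d14. They numbered 46 of 15218 cells at d0 (0.302%, 95% exact binomial interval 0.221 to 0.403), 261 of 14142 at d1 (1.85%, 1.63 to 2.08), 88 of 10272 at d7 (0.857%, 0.688 to 1.05), 949 of 16177 at d14 (5.87%, 5.51 to 6.24) and 83 of 16892 at d21 (0.491%, 0.392 to 0.609). The d14 library alone held 66.5% of them. The denominators are all deposited barcodes with at least 200 genes, a larger set than the cells the study kept. Below 20% mitochondrial UMIs the d0 share was 0.640%, above that of d21, without the EPCAM limit the d1 share was 3.22%, with each cell thinned to 1000 UMIs the d7 share was 0.481%, and without cells holding 3 UMIs of another type the d21 share was 0.278%. The d14 share was the highest in each of these settings. The d14 and d1 shares were apart from each other and from the rest, whereas the intervals of d0 and d21 overlapped narrowly. These and all intervals below cover counting error only.

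Depth differed between libraries. The C1Q cells had a median of 3472 UMIs at d0, 4489 at d1, 6786 at d7, 7564 at d14 and 4535 at d21, each above the median of all cells of its library, which lay between 2340 and 4121. In total, 168102, 1152182, 668132, 7263032 and 477698 UMIs stood behind the levels in order of age, so that values at d14 are the most precise and those at d0 the least. No barcode was shared by C1Q cells of different libraries, although 576 barcodes were shared by some pair of libraries among all cells. Mitochondrially encoded genes took 11.2% of the UMIs of C1Q cells at d0 and 5.67% to 7.63% in the later libraries.

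**Figure D1:**
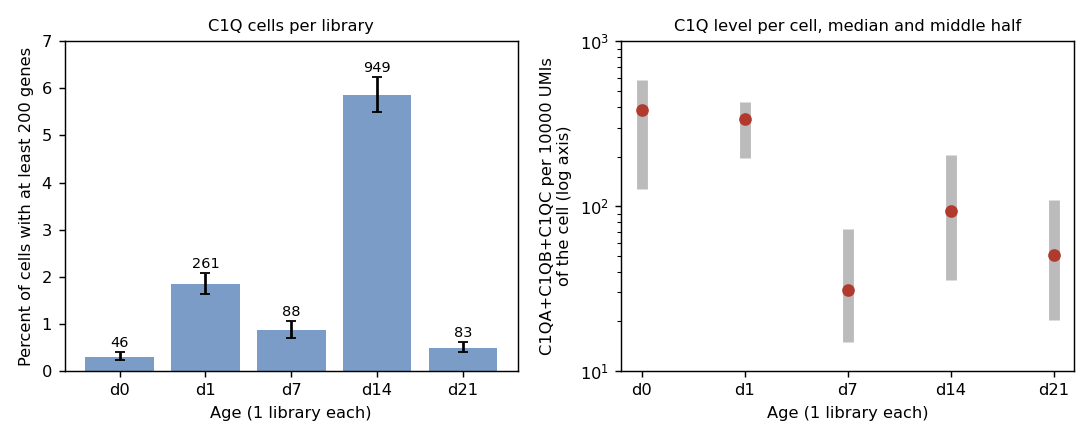
Left, share of cells with at least 200 genes that were C1Q cells (y axis, percent) in each library (x axis, age), with the cell number above each bar and exact binomial 95% intervals for counting error; right, summed C1QA, C1QB and C1QC level of each C1Q cell per 10000 UMIs on a log axis, as the median (point) and the middle 50% of cells (bar). The share was highest at d14 (5.87%), whereas the C1Q level per cell was highest at d0 and d1 (medians 382 and 337) and lowest at d7 (31.0).

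The cells at d7 and d21 were closer to the limit of the rule than those at d0 and d1. Levels are given as UMIs of a gene summed over the C1Q cells of a library, per 10000 UMIs of the same cells. Where 5 values follow one another, their order is that of age, from d0 to d21. The 3 C1q genes together reached a level of 351 per 10000 at d0, 312 at d1, 47.7 at d7, 150 at d14 and 55.1 at d21, and the median cell held 102, 110, 15.5, 46 and 20 UMIs of them. All 3 chains were detected in 91.3% of C1Q cells at d0, 96.2% at d1, 73.9% at d7, 92.0% at d14 and 81.9% at d21. In all other cells the level was at most 3.82 per 10000, with d1 and d14 above the other 3 libraries, which lay between 0.135 and 0.187. Just inside the limit were 98 cells with 5 or 6 C1Q UMIs and just outside it 186 cells with 3 or 4. At d14 the level of CSF1R was 4.16 per 10000 in the cells just outside, 6.36 in those just inside and 9.40 in those with 10 C1Q UMIs or more. Of the C1Q cells, 63 carried the single MARCO UMI allowed, and 21 cells were left out with 2 MARCO UMIs. The EPCAM limit left out 232 cells that met the C1Q and MARCO limits, 194 of them at d1.

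The macrophage label was checked against genes that the rule did not use. CSF1R was 8.27, 7.13, 5.76, 9.17 and 5.84 per 10000 from d0 to d21, against 0.0341, 0.154, 0.625, 1.28 and 0.282 in all other cells. It was above the other cells in every library. SPI1, the master transcription factor of myeloid cells, was 1.78, 2.92, 5.22, 5.73 and 5.13 per 10000. The signalling adaptor TYROBP ranged from 19.4 to 26.1 per 10000 and AIF1, an actin-binding protein of macrophages, from 11.7 to 16.0, with no library standing apart. Thus the general macrophage genes were present at all 5 ages.

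CD163 was less even. Its level was 3.57 per 10000 at d0, 3.84 at d1, 1.09 at d7, 2.68 at d14 and 0.398 at d21, and in all other cells at most 0.299. A UMI of CD163 was found in 24 of 46 cells at d0, 135 of 261 at d1, 30 of 88 at d7, 511 of 949 at d14 and 11 of 83 at d21. With each cell thinned to 1000 UMIs, the shares were 25.6%, 27.6%, 11.6%, 22.5% and 6.10%, against at most 0.4% of T cells thinned in the same way. At d21, then, most cells chosen by C1Q showed no CD163, and for this reason the cells are called C1Q cells here, after the rule. The mannose receptor MRC1 followed the same order of high and low libraries, at 2.74, 2.79, 0.898, 2.65 and 0.837 per 10000.

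Over 4 libraries with at least 50 C1Q cells, 61 of 906 genes were at least 2-fold higher in C1Q cells than in all other cells of each library, and 3 were lower. The ratio is given as log2 of the levels after adding 0.1. Of the 15 genes with the highest smallest ratio, 6 encode lysosomal proteases, namely CTSS, CTSZ, LGMN, CTSH, CTSB and SCPEP1. DNASE2, the nuclease that digests DNA of engulfed cells, and NPC2, which moves cholesterol out of lysosomes, were also among them. For CTSS the log2 ratio was between 2.93 and 3.75 over the 4 libraries. CSF1R was between 2.75 and 4.83. FOLR1, a folate receptor, was 24.9, 19.9, 30.4 and 14.4 per 10000 at d1, d7, d14 and d21, against 0.680, 2.37, 4.79 and 1.04 in the other cells. The antigen presentation genes SLA-DMB, SLA-DRA, SLA-DQB1 and IFI30 were also among the leading 15.

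Transcripts of other cell types were present in part of the C1Q cells. At least 3 UMIs of a T cell, B cell, epithelial, fibroblast or blood endothelial list were found in 13 C1Q cells at d0, 102 at d1, 30 at d7, 307 at d14 and 36 at d21, 34.2% of all, and doublets were not removed. At d14, 181 C1Q cells reached 3 UMIs by the endothelial list and 105 by the T cell list. The fibroblast list gave 72 there, the B cell list 7 and the epithelial list 4. At d1 the epithelial list came first with 54 cells, and the endothelial list gave 38. The endothelial list includes PLVAP, which was its most abundant gene in C1Q cells of every library. Its summed level was 1.73, 7.20, 1.57, 1.89 and 2.97 per 10000 in C1Q cells and 0.152, 8.36, 0.525, 1.14 and 0.637 in other cells, higher in C1Q cells in all libraries but d1. The mast cell list, with MS4A2 as its most abundant gene, was 1.49, 0.469, 1.56, 1.79 and 1.93 per 10000 in C1Q cells and 0.208, 0.329, 0.905, 1.82 and 0.939 in other cells, higher in all but d14. Fibroblast genes were higher in C1Q cells at d0 (3.03 against 0.409) and lower at the other ages. The summed level of 6 T cell genes was 0.119, 0.208, 1.53, 2.04 and 3.31 per 10000 in C1Q cells and 0.325, 0.285, 7.72, 8.72 and 13.5 in other cells, so that it was lower in C1Q cells in each library. CD3E, the most abundant T cell gene from d7 on, was 0.599, 0.840 and 1.15 per 10000 in C1Q cells at d7, d14 and d21. KRT8, an epithelial keratin, was 1.37, 1.35, 0.359, 0.0454 and 0.356 per 10000 in C1Q cells and 23.6, 16.7, 16.9, 2.30 and 3.41 in other cells. JCHAIN, of plasma cells, had no UMI at d0 and d1 and was 3.00 per 10000 at d14 and 3.37 at d21, where other cells had 24.5 and 13.8. The summed level of 6 genes of type 1 dendritic cells was 1.67, 2.05, 2.35, 2.16 and 2.91 per 10000 in C1Q cells and 0.0600, 0.211, 0.668, 1.90 and 1.08 in other cells, so that it was higher in C1Q cells in each library. Its most abundant gene was CADM1 at d0 and d1 (0.952 and 0.998 per 10000) and the transcription factor BATF3 later (1.62, 0.902 and 1.82 at d7, d14 and d21), while its defining receptors XCR1 and CLEC9A were at most 0.0399. BATF3 was at least 2-fold higher at d7 and at d21 than at d1. Of the general dendritic cell genes, FLT3 was at most 0.188 per 10000 and CCR7 was 0.778 at d7 and 1.19 at d21. The part of these genes in the results was not tested. Cytotoxic genes had the highest summed level of the lists of other cell types from d1 on, with a summed level of 3.81, 9.30, 6.59, 19.6 and 53.6 per 10000 in C1Q cells and 3.61, 3.64, 49.8, 64.7 and 131 in other cells. At d0, by a small margin, and at d1 they were higher in C1Q cells than in other cells. CCL5 was the most abundant gene of this list in each library. At least 3 UMIs of this list, which the count above leaves out, were found in 4, 69, 35, 493 and 71 C1Q cells, 85.5% of those at d21. For a few genes, differences from d1 to d7 and to d14 are therefore also given without such cells. None was computed for d21.

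The difference between ages was described gene by gene for libraries with at least 50 C1Q cells, that is, without d0. A gene entered when the mean of its levels in both libraries was at least 1 per 10000. In the library with the higher level, at least 10% of the C1Q cells also had to hold a UMI of it. From d1 to d7, 91 of 1267 genes were at least 2-fold higher (7.18%) and 81 lower (6.39%), 13.6% in all. Between d7 and d14, 38 of 1346 were higher (2.82%) and 27 lower (2.01%), 4.83% in all. At d21 compared with d14, 38 of 1370 were higher (2.77%) and 45 lower (3.28%), 6.06% in all. Set against d1, d14 had 83 of 1303 genes higher (6.37%) and 80 lower (6.14%), 12.5% in all, and d21 had 121 of 1292 higher (9.37%) and 92 lower (7.12%), 16.5% in all. The comparisons share libraries, and the median log2 ratio of all genes tested was between -0.02 and 0.11. Some counts moved by over 1.5 times under other settings. With 0.5 instead of 0.1 added, 54 genes were higher at d7 than at d1, 17 lower at d14 than at d7 and 24 higher at d21 than at d14, and by the mean of the cells' own levels 141, 143 and 230 were higher at d7, d14 and d21 than at d1. Without cells holding UMIs of another type, 54 genes were higher and 54 lower at d14 than at d7.

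Markers of stroma and plasma cells were among the genes with the largest ratios from d7 to d14. COL3A1, a collagen of fibroblasts, was 0.0299 per 10000 at d7 and 3.67 at d14, and ACTA2, smooth muscle actin, was 0.0150 and 2.20. The summed fibroblast list was 0.0748 and 7.88 per 10000 in C1Q cells and 2.62 and 32.2 in other cells. JCHAIN and ADAMDEC1 were also among the leading genes of that comparison. The cells left out above were chosen by a fibroblast list among others, but by no plasma cell or smooth muscle list. The part of these genes in the counts was otherwise not tested.

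Of the resident macrophage genes, SELENOP, DAB2, STAB1, TIMD4 and VSIG4 had their highest levels at d0 and d1 and were low at d7 and d21. SELENOP, a selenium carrier that resident macrophages also make, was 18.0, 14.7, 1.59, 8.50 and 2.14 per 10000 in the 5 libraries from d0 on. In all other cells it was 12.1, 6.07, 0.619, 1.13 and 0.572, so that the other cells of d0 and d1 were high as well. DAB2, an endocytic adaptor, was 3.75, 5.16, 0.614, 2.73 and 0.209 per 10000. STAB1, a scavenger receptor, was 1.90, 1.57, 0.225 and 0.958 per 10000 at d0, d1, d7 and d14 and had no UMI at d21, where 3 UMIs would be a level of 0.0628. TIMD4, which binds phosphatidylserine on dying cells, was 0.654, 1.34, 0.0150, 0.319 and 0.0628 per 10000. VSIG4, a complement receptor of resident macrophages, was 1.13, 1.37, 0.0748, 0.307 and 0.0628. In all 5 of these genes d0, d1 and d14 lay above d7 and d21.

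Few genes of the resident list were abundant enough for the count. Of 18 genes of the list, 3 passed the filter in each comparison, and SELENOP and DAB2 were at least 2-fold lower at d7 than at d1 while PLA2G2D, a secreted phospholipase, was higher (0.278 and 1.99 per 10000). The same pair was higher at d14 than at d7 and lower at d21 than at d14. Of the macrophage identity list, 14 of 20 genes passed the filter from d1 to d7, of which 3 (CD163, MRC1 and the lysosomal membrane protein CD68) were lower and 0 higher, with a list median of -0.15 beside 0.11 for all genes. The log2 ratio of CD163 was -1.72, and -0.99 without cells holding UMIs of cytotoxic or other cell types, so that its call was lost there. These 3 genes were higher at d14 than at d7. At d21 compared with d14, CD163, MRC1 and the inhibitory Fc receptor FCGR2B were lower, among 13 genes past the filter. CD14, the co-receptor for bacterial lipopolysaccharide, was highest in the youngest animals, with 2.97, 2.39, 1.74, 1.35 and 0.461 per 10000 from d0 to d21.

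**Figure D2:**
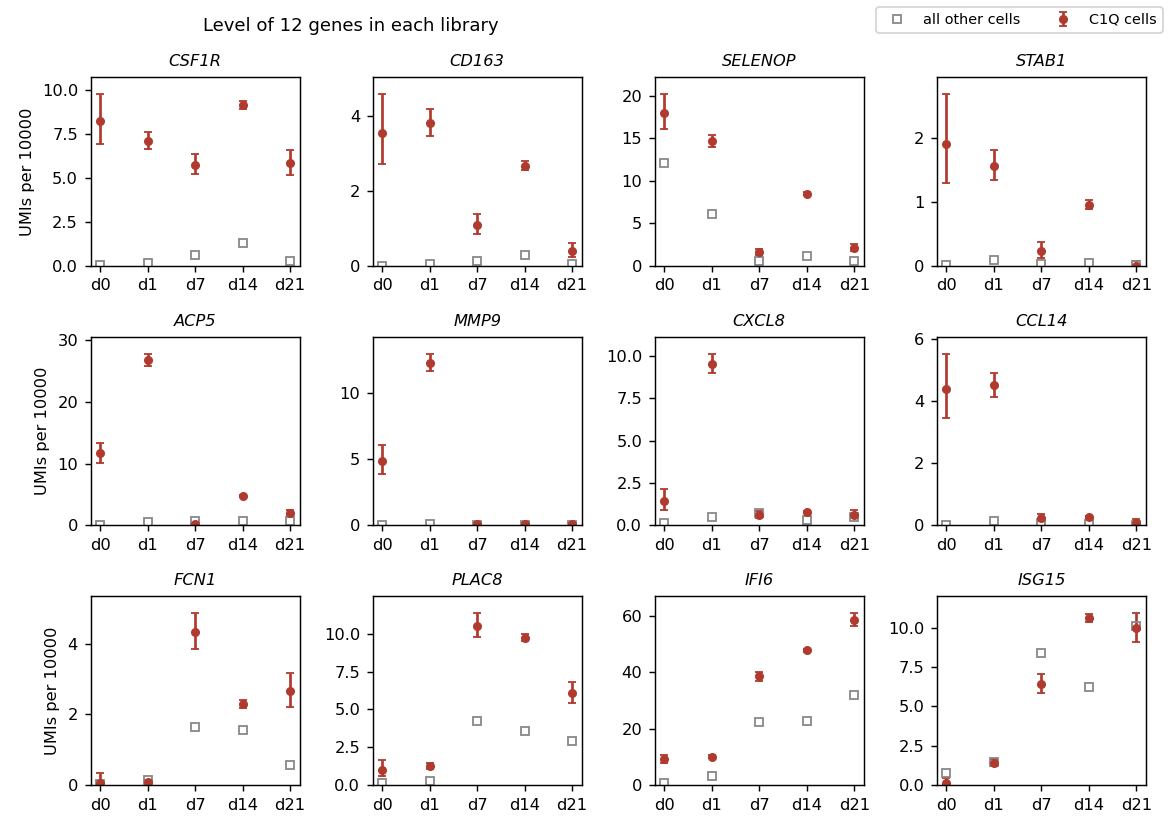
Level of 12 genes (y axis, UMIs per 10000) in the 5 libraries (x axis, age), in C1Q cells (filled points with exact Poisson 95% intervals for counting error) and in all other cells of the library (open squares). CD163, SELENOP and STAB1 were high at d0, d1 and d14 and low at d7 and d21, MMP9 and CXCL8 were highest at d1, and FCN1, PLAC8, IFI6 and ISG15 were low at d0 and d1 in both C1Q cells and other cells.

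Part of the lysosomal genes were at least 2-fold lower at d7 and d21 than at d1, 8 and 7 of 21 past the filter. ACP5, an acid phosphatase of macrophages and osteoclasts, was 11.7, 26.8, 0.180, 4.82 and 2.07 per 10000 over the 5 ages, whereas all other cells never exceeded 0.665. The d1 value stood above that of every other library. CST3, the secreted inhibitor of cysteine cathepsins, was 118, 124, 24.4, 32.4 and 24.5 per 10000, with d0 and d1 apart from the later ages. LGMN, the asparaginyl protease that activates cathepsins, was 5.18, 11.4, 3.91, 6.95 and 1.86. By contrast, CTSC, which activates serine proteases of granules, was 5.35, 5.59, 7.96, 13.4 and 8.50 per 10000, highest at d14. Of 31 lysosomal genes in the files, 21 passed the filter from d1 to d7 and 8 of them were at least 2-fold lower (among them LGMN, LIPA, NPC2, PSAP, GRN, ACP5 and CST3) and 0 higher, with a list median of -0.71 beside 0.11 for all genes. From d7 to d14, 4 of 20 were higher (CTSD, HEXA, GRN and ACP5), and from d14 to d21, 7 of 21 were lower (CTSD, CTSH, LGMN, HEXA, NPC2, GRN and ACP5). Compared with d1, d14 had 2 of 21 higher (CTSC and GM2A) and 2 lower (ACP5 and CST3).

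DNASE1L3, a secreted nuclease that digests DNA released from dying cells, belongs to the genes with the largest differences. Its level was 11.6, 10.2, 0.0150, 2.07 and 0.419 per 10000 in order of age. Some haem and iron genes were lower after d1 too. HMOX1, which breaks haem down, was 3.63, 6.77, 2.60, 2.55 and 2.18 per 10000, and SLC40A1, the iron exporter ferroportin, 1.31, 2.46, 0.120, 0.297 and 0.126. In the other cells SLC40A1 was 3.23 at d0 and 1.53 at d1, above the C1Q cells at d0 and below them at d1. From d1 to d7, 4 of 6 haem and iron genes past the filter were at least 2-fold lower (HMOX1, SLC40A1, CD163 and BLVRB, the biliverdin reductase B) and 0 higher, with a list median of -1.53, where the call of CD163 was again lost without cells holding UMIs of cytotoxic or other cell types. From d1 to d14 the count was 3 of 7 lower, without CD163. FTH1, the heavy chain of the iron store ferritin, was 179 per 10000 at d1, 139 at d7 and 194 at d14, within 2-fold.

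C1Q cells at d1, and for part of the genes those at d0, carried inflammatory transcripts at higher levels than at the later ages. MMP9, the gelatinase B that cuts basement membrane collagen, was 4.88 per 10000 at d0, 12.3 at d1, 0.135 at d7, 0.0757 at d14 and 0.0837 at d21. CXCL8, the main neutrophil attractant, was 1.43, 9.54, 0.629, 0.794 and 0.628 per 10000, so that d1 was above d0 as well as above the later ages. CXCL2, another neutrophil attractant, was 8.39 and 10.0 at d0 and d1 and between 0.691 and 1.70 later. CCL8, a monocyte attractant, was 5.03 per 10000 at d1 and at most 0.357 elsewhere. CCL14 was 4.40 and 4.51 at d0 and d1 and at most 0.271 later. IL1A, a cytokine of the interleukin 1 family, was 3.14 per 10000 at d1 and at most 0.614 elsewhere, while IL1B was 2.74 at d0, 3.92 at d1 and 0.614 to 1.15 later. Thus MMP9, CXCL2, CCL14 and IL1B were already present at d0, whereas CXCL8, CCL8 and IL1A had their high level at d1 alone.

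Counted over the lists, 7 of 11 chemokine genes past the filter were at least 2-fold lower at d7 than at d1 (CXCL2, CXCL8, CXCL14, CCL2, CCL4, CCL8 and CCL14) and 1 was higher (CXCL10), with a list median of -2.73. Without the interferon-led subgroup described below, CXCL10 was 2.66 per 10000 at d1 and 4.46 at d7, less than 2-fold apart. At d14 compared with d1, 5 of 10 were lower (CXCL2, CXCL8, CCL4, CCL8 and CCL14) and 2 higher (CXCL10 and CCL5). The log2 ratio of CCL5 there was 1.19, and -0.21 without the 4 subgroups led by genes of other cell types. CXCL10 without the interferon-led subgroup was 4.17 per 10000 at d14, against 2.66 at d1, so that its call was lost there too. For d21 against d1 the count was 8 of 10 lower and 1 higher, CCL5. Of the cytokine list, 2 of 7 were lower at d7 than at d1 (IL1A and IL1B), 4 of 6 at d14 (IL1A, IL1B, TNF and IL10) and 4 of 7 at d21, with 0 higher. IL10, which restrains inflammation, was 1.43, 1.61, 0.913, 0.712 and 0.649 per 10000 from d0 to d21. CXCL14 and CCL5 are also made by other cells here, at up to 35.8 and 114 per 10000, and in each library from d7 on their level in C1Q cells was below that in the other cells.

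From d7 on, C1Q cells carried monocyte genes. FCN1, the ficolin of blood monocytes, was 0.0595, 0.0781, 4.33, 2.28 and 2.66 per 10000 from d0 to d21, with 1, 5, 45, 287 and 30 cells holding a UMI. After thinning to 1000 UMIs, 0 of 43 cells held FCN1 at d0, 0.476% at d1, 29.1% at d7 and 18.3% at d21, with d14 below both and above d1, while T cells had at most 1.2%. For d0 the 43 cells allow a share of up to 8.22%. PLAC8 was 1.01, 1.25, 10.5, 9.74 and 6.07 per 10000, and LYZ, lysozyme, was 0.773, 1.07, 5.70, 5.45 and 4.86. The other cells differed in the same direction, with PLAC8 at 0.111, 0.248, 4.24, 3.54 and 2.88 and LYZ at 0.0550, 0.241, 2.50, 2.81 and 0.980. FCN1, LYZ and PLAC8 were at least 2-fold higher at d7, at d14 and at d21 than at d1, 3 of 4 monocyte genes past the filter each time and 0 lower. The list medians were 2.65, 2.56 and 2.14.

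Interferon-induced genes were higher from d7 on, again in C1Q cells and in other cells. IFI6 was 9.04, 9.99, 38.5, 47.8 and 58.7 per 10000 in C1Q cells in the 5 libraries from d0 on, and 0.551, 3.14, 22.4, 22.7 and 31.9 in other cells. ISG15, a ubiquitin-like modifier, was 0.119, 1.42, 6.42, 10.6 and 9.99 per 10000 in C1Q cells, and its level in other cells was 0.772, 1.44, 8.38, 6.27 and 10.1. At d14 ISG15 was above the other cells, but 44 C1Q cells of the interferon-led subgroup described below held 51.6% of its UMIs, and without them its level was 5.45 per 10000, below the other cells. CXCL10, a chemokine induced by interferon, was 0.595, 2.68, 7.26, 9.34 and 4.02 per 10000. Without that subgroup it was 2.66 at d1, 4.46 at d7 and 4.17 at d14, so that neither d7 nor d14 was 2-fold above d1. IFI6 without the subgroup was still 38.3 at d7 and 44.2 at d14. Of 6 interferon genes past the filter, 5 were at least 2-fold higher at d7 than at d1 (among them ISG15, IFI6, MX1 and GBP1), 6 of 7 at d14 with IRF7 added, and 5 of 6 at d21, with 0 lower in each. The medians of the list were 1.61, 2.25 and 1.95.

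Antigen presentation genes were high throughout. SLA-DRA, the alpha chain of the class II molecule DR, was 137, 83.7, 67.7, 92.2 and 50.3 per 10000 over the 5 ages, and CD74, the invariant chain, 171, 104, 115, 152 and 115. Of the class II list, 8 to 10 of 13 genes passed the filter. The co-stimulatory receptor CD40 was higher at d7 and at d21 than at d1, SLA-DRB1 was lower at d21 than at d14, and no other class II gene past the filter differed by 2-fold between the ages compared. CIITA, the activator of class II genes, was 0.119, 0.347, 0.958, 0.895 and 0.816 per 10000, too low for the count, with the values from d7 on above those of d0 and d1.

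Among the other complement genes, 4 to 7 of 20 passed the filter. CFP, properdin, which stabilises the alternative pathway convertase, was 0.773, 0.434, 2.32, 2.39 and 2.34 per 10000 in order of age and was at least 2-fold higher at each of the 3 later ages than at d1. C1R, the protease that C1q carries, was 2.65 per 10000 at d14 and between 0.476 and 0.712 elsewhere. SERPING1, the inhibitor of that protease, was 1.90, 1.48, 0.434, 1.58 and 0.628.

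Heat shock and immediate early genes, which respond to handling within minutes to hours, also separated the libraries. HSPA6, a heat shock protein found at low level in unstressed cells, was 1.19, 0.720, 26.6, 21.9 and 26.0 per 10000 in C1Q cells and 1.32, 0.791, 10.5, 18.4 and 14.4 in other cells from d0 to d21. FOS was 25.3, 20.8, 25.3, 7.04 and 10.9 per 10000 from d0 to d21, and ATF3 was 1.56 at d14 and at least 5.81 elsewhere, so that both were lowest at d14. At d14 compared with d7, 6 of 17 genes of this list were at least 2-fold lower and 0 higher, and at d21 compared with d14, 7 of 16 were higher and 0 lower. HSPA6 was higher at each age from d7 on than at d0 and d1 in both C1Q cells and other cells, but among the later ages it was lowest at d14 in C1Q cells and highest there in other cells. The part of these genes in the other differences was not tested.

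**Figure D3:**
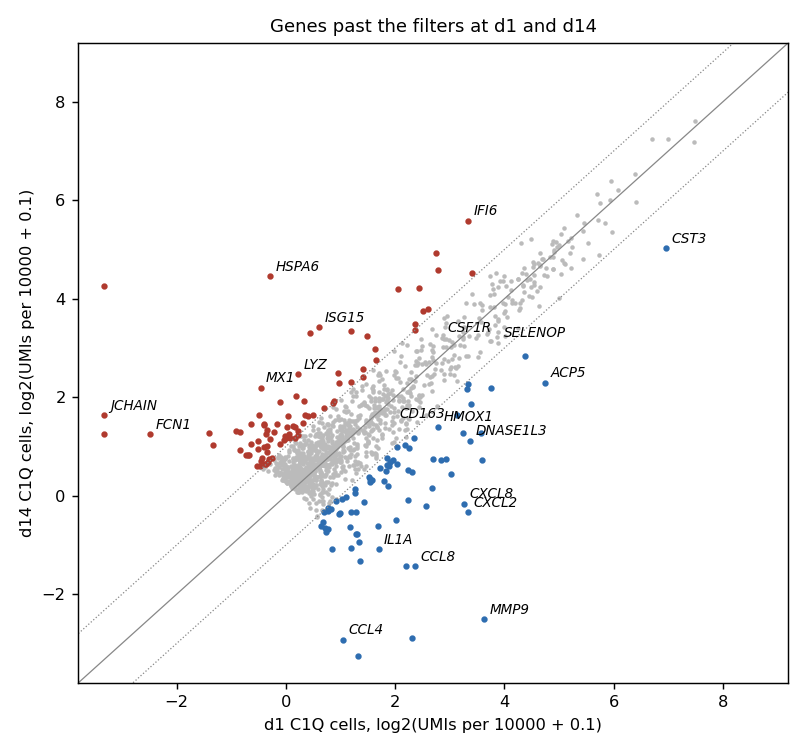
Level of each gene past the filter in C1Q cells at d1 (x axis) and d14 (y axis), both as log2 of UMIs per 10000 plus 0.1, 1 point per gene, with dotted lines at a 2-fold difference. The 80 genes lower at d14 (blue) include MMP9, CXCL8, CCL8 and ACP5, and the 83 higher (red) include FCN1, LYZ, ISG15 and IFI6, while CSF1R and CD163 lay between the lines.

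Because the C1Q level itself differed between libraries, the ages were also set side by side for cells with a C1Q level of at least 50 per 10000, a limit chosen after the data were seen. These were 42 cells at d0, 241 at d1, 34 at d7, 637 at d14 and 44 at d21. Their CD163 level was 3.81, 4.24, 0.720, 3.49 and 0.725 per 10000, their SELENOP level 19.1, 15.7, 3.30, 12.6 and 2.95, and their FCN1 level 0.0636, 0.0777, 6.22, 1.57 and 2.59. MMP9 was 5.21, 13.7, 0.381, 0.111 and 0.207 per 10000 in the same cells. For these 4 genes the order of high and low libraries was thus much as among all C1Q cells, although d0, d7 and d21 rest on fewer than 50 cells each. CTSC differed, with 6.02 per 10000 at d1 and 4.61 at d21 in these cells.

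Differences between d1, d7 and d14 were also computed without the cells that carried transcripts of other cell types. From d1 to d7 the log2 ratio of MMP9 was -5.72, and -6.36 without cells holding at least 3 UMIs of another type. For ACP5 it was -6.59 and -7.97, for SELENOP -3.13 and -3.47, for CD163 -1.72 and -1.46, and for FCN1 4.63 and 5.59. From d1 to d14 MMP9 gave -6.14 and -5.82, CXCL8 -3.43 and -3.29, and FCN1 3.74 and 4.49. Leaving out cells with 3 UMIs of the cytotoxic list as well kept 121 cells at d1, 39 at d7 and 336 at d14. The log2 ratios from d1 to d14 were then -5.82 for MMP9, -3.29 for CXCL8, -2.55 for ACP5 and 4.40 for FCN1. From d1 to d7 that of CD163 was -0.99, no longer past 2-fold, with levels of 3.32 and 1.62 per 10000. The other genes lay on the same side of the 2-fold line with and without such cells, while CD163 and SELENOP were within it at d14 against d1 (-0.50 and -0.78 with all C1Q cells).

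The d14 library had enough C1Q cells to follow other genes along the C1Q level within 1 library. Its 949 cells were divided by C1Q level into a lowest group of 316 cells, a middle group of 317 and a highest group of 316, with limits at 50.8 and 155 per 10000 and with 48 and 69 cells lying within 10% of these limits. The groups are ranges of a continuous level, not cell types, and the same cells gave both measures, so no test was made. Of the genes with a level of at least 0.2 per 10000 in any group, 19 of 29 lysosomal genes and 8 of 13 resident genes were at least 2-fold higher in the highest than in the lowest group and 0 lower, with list medians of 1.15 and 1.88 (log2) beside 0.10 over the 285 genes of all lists. Of all 285, 57 were higher and 41 lower. PLA2G2D (1.25, 1.37 and 1.18 per 10000) and CTSK (0.301, 0.179 and 0.233) were among those within 2-fold. SELENOP was 2.49, 6.50 and 17.5 per 10000 in the lowest, middle and highest group, DAB2 was 0.815, 1.79 and 5.81, and STAB1 was 0.321, 0.721 and 1.93. LGMN was 2.49, 4.71 and 14.2 and CTSD, the aspartic protease of lysosomes, 3.52, 5.38 and 15.8. CD163 was 1.51, 2.71 and 4.11 per 10000, a smaller difference, and CSF1R was 6.55, 10.6 and 11.2.

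Some genes were found mainly in the highest C1Q group. SPP1, osteopontin, was 0.156, 0.0684 and 10.0 per 10000 in the lowest, middle and highest group. ACP5 was 0.541, 1.40 and 12.8, and CCL24, an eosinophil attractant, was 0.0643, 0.0789 and 2.39. In the other direction, FCN1 was 3.31, 2.19 and 1.09 per 10000 and the mast cell gene MS4A2 was 2.45, 1.35 and 0.470. Of other cell types, 6 of 7 fibroblast genes, 4 of 4 smooth muscle genes, 3 of 4 T cell genes and 3 of 4 cytotoxic genes were at least 2-fold lower in the highest C1Q group, with CCL5 at 20.8 in the lowest and 7.30 in the highest, CD3E at 1.34, 0.605 and 0.416 and ACTA2, smooth muscle actin, at 4.17, 1.67 and 0.208 per 10000. NKG7 (2.15, 1.74 and 2.57), JCHAIN (4.02, 0.573 and 3.66) and PLVAP (1.20, 1.53 and 1.37) were within 2-fold, and CADM1 was higher (0.392, 0.515 and 1.51). The median UMIs per cell were 8664.5, 4659 and 7496, so that depth did not follow the order of the C1Q level. LYZ and SLA-DRA varied little, at 5.90, 5.44 and 4.90 and at 79.2, 83.6 and 115 per 10000.

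**Figure D4:**
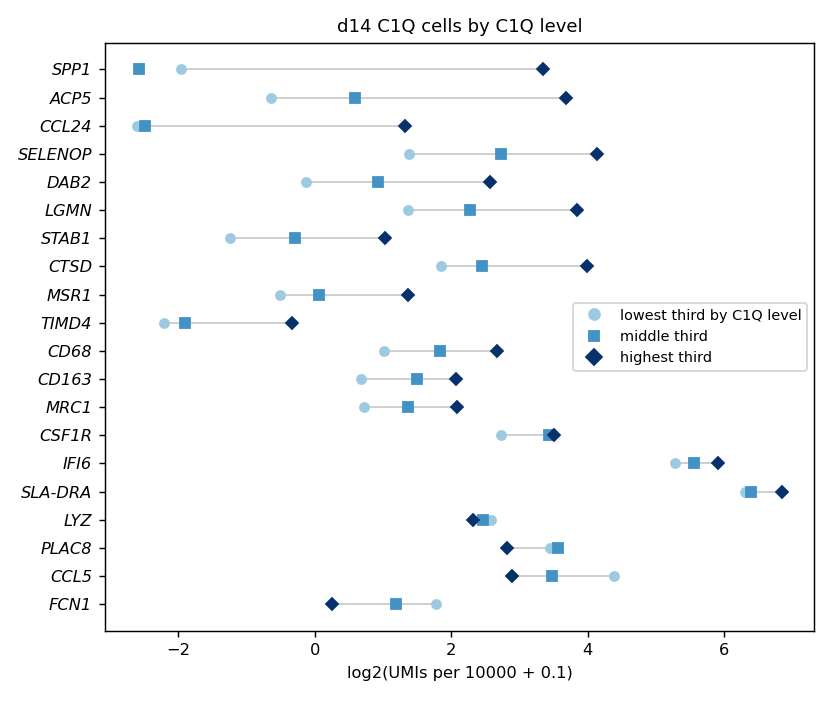
Level of 20 genes (x axis, log2 of UMIs per 10000 plus 0.1) in the C1Q cells of d14 divided into 3 groups by their C1Q level (circle lowest, square middle, diamond highest). SPP1, ACP5 and CCL24 were high in the highest group alone, SELENOP, DAB2, LGMN and STAB1 were higher from group to group, and FCN1 and CCL5 were lower.

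C1Q cells were next compared, within each library, with FCN1 monocyte-like cells, taken as cells with at least 3 FCN1 UMIs and none of C1Q, MARCO and EPCAM. There were 26, 46, 610, 683 and 256 of these in the 5 libraries from d0 on, and the comparison was made at the last 3 ages. At least 2-fold different were 8.41% of genes at d7 (26 higher and 84 lower in C1Q cells of 1308), 6.16% at d14 (40 and 43 of 1348) and 6.46% at d21 (31 and 57 of 1363). Of 1130 genes tested at all 3 ages, 10 were higher and 22 lower each time. FCN1 is among the lower genes in these counts, which follows from choosing the compared cells by it. By the mean of the cells' own levels, 47 were higher and 133 lower at d7, 79 lower at d14 and 68 higher at d21. Class II genes were among the higher ones. SLA-DRA was 67.7, 92.2 and 50.3 per 10000 in C1Q cells at d7, d14 and d21 and 13.6, 31.7 and 19.2 in FCN1 cells. CD74 was 115, 152 and 115 against 30.6, 55.0 and 36.6. CST3 was 24.4, 32.4 and 24.5 against 6.07, 7.82 and 5.09. MRC1, too low for the count at d7 and d21, was 0.898, 2.65 and 0.837 per 10000 in C1Q cells and 0.0336, 0.305 and 0.0197 in FCN1 cells.

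The genes lower in C1Q cells included genes of granulocytes and monocytes. S100A9, a subunit of calprotectin, was 0.659, 0.352 and 0.377 per 10000 in C1Q cells at d7, d14 and d21 and 22.9, 7.44 and 9.61 in FCN1 cells. LYZ was 5.70, 5.45 and 4.86 against 26.5, 21.4 and 25.9. S100A12, TGM3, G0S2, IL1B and S100A6 were lower at all 3 ages too. CSF1R, by contrast, was 5.76, 9.17 and 5.84 per 10000 in C1Q cells and 4.44, 6.30 and 3.79 in FCN1 cells, less than 2-fold apart, and CD163 at d21 was lower in C1Q cells (0.398) than in FCN1 cells (1.19). SPI1 also differed by less than 2-fold in each library.

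MARCO macrophages, which met the same C1Q limit but held at least 2 UMIs of the scavenger receptor MARCO, numbered 165 at d14 and at most 9 in any other library. At d14, 35 of 1401 genes were at least 2-fold higher and 45 lower in the C1Q cells, 5.71% in all. Higher were FABP5, a fatty acid binding protein (3.55 against 0.734 per 10000), CAPG, an actin-capping protein (4.81 against 1.21), PLD4, an endolysosomal nuclease (2.21 against 0.563), and the transcription factor RUNX3 (1.67 against 0.442). JCHAIN (3.00 against 0.693) and ACTA2 (2.20 against 0.633), of plasma cells and smooth muscle, were also among the 10 genes with the largest ratio, and their part in the difference was not tested. Lower were LST1 (0.907 against 5.68), the adhesion receptors ADGRG1 (0.887 against 4.48) and ADGRE5 (2.26 against 9.46), HPGD, which breaks down prostaglandins (0.825 against 4.12), and PLVAP (1.34 against 6.45). CSF1R was 9.17 against 9.03 per 10000 and SPI1 5.73 against 6.02, so that the pair of general macrophage genes was nearly equal.

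The C1Q cells were finally grouped among themselves by the Leiden method after centring each gene within its library, which gave 12 subgroups. The subgroups are described by their leading genes, and since these genes made them, no test was made. All but subgroup 12, which held 10 cells of d1, drew cells from at least 3 libraries. Subgroup 6 (140 cells, 134 of d14) was led by CCL24, PEPD, ACP5, CTSD and LGMN and had the highest C1Q level, 440 per 10000. Next came subgroup 5 (153 cells, 22 of d0 and 120 of d1), led by MMP9, CCL8, CXCL8, CCL4 and CXCL2, with a C1Q level of 404.

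Subgroups 1 to 4 had a C1Q level from 73.1 to 152 per 10000. Subgroup 1 (229 cells) was led by MS4A2, CD1.1, IL4I1, IL18BP and PAK1, had a C1Q level of 73.1 per 10000 and the highest summed class II level, 660. Its summed levels of the mast cell list (4.21 per 10000, with MS4A2 alone at 3.80) and of the general dendritic cell list (2.32) were also the highest of the 12 subgroups. CSF1R was 7.85 per 10000 in it, CD163 0.903, STAB1 0.248 and CD14 0.446. Subgroup 2 (176 cells, 148 of d14 and 19 of d7) was led by TGM3, FCN1, S100A4, F13A1 and LYZ, with a C1Q level of 74.2 and a CD163 level of 3.62. Subgroup 3 (173 cells, 129 of d14) was led by ADGRG1, LST1, HPGD, ADGRE5 and ITGAL, the genes found higher in MARCO macrophages. It held 26 of the 83 C1Q cells of d21 (31.3%), 15 of 88 at d7, 3 of 261 at d1 and none at d0. Of the 63 cells with 1 MARCO UMI, 22 were in it. FCN1 was 7.38 per 10000 in this subgroup, above the 6.85 of subgroup 2, and CD163 was 0.543. Its C1Q level was 152 per 10000, its MRC1 level 0.0876 and its median depth 2658 UMIs. Subgroup 4 (167 cells), led by MMP14, SLC43A2, MERTK, SGPL1 and APOE, had a C1Q level of 124, a median of 2283 UMIs and 20.3% mitochondrial UMIs.

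A pair of small subgroups stood for single programs. Subgroup 10 (49 cells, 44 of d14) was led by the interferon-induced genes CXCL10, IFIT1, ISG15, IFIT2 and RSAD2, with CXCL10 at 93.5 per 10000 against 3.9 in the remaining C1Q cells. Subgroup 11 (49 cells, from 4 libraries) was led by the mitotic genes CENPF, TOP2A, UBE2C, MKI67 and KIF11, with TOP2A at 7.69 and MKI67 at 3.51 per 10000. Over all C1Q cells, MKI67 was between 0.0595 and 0.523 per 10000 in the 5 libraries. Besides subgroup 1 with its mast cell gene MS4A2, the remaining subgroups were led by genes of other cell types. Subgroup 7 (125 cells) was led by GZMB, EPHB6, CD3E, CTSW and CD3G of T and cytotoxic cells, and 106 of its cells held at least 3 UMIs of another type. Subgroup 8 (95 cells, 76 of d1, median 886 UMIs) was led by S100G, DISP2, MYO15B, LYPD8 and PRAP1, which include enterocyte genes, subgroup 9 (61 cells) by ADAMDEC1, COL3A1, ACTA2 and TAGLN of stroma, and subgroup 12 by CLEC3B, VWF, LYVE1, CAVIN2 and APOA1. These 4 subgroups held 291 C1Q cells, 99 of them at d1 and 157 at d14.

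**Figure D5:**
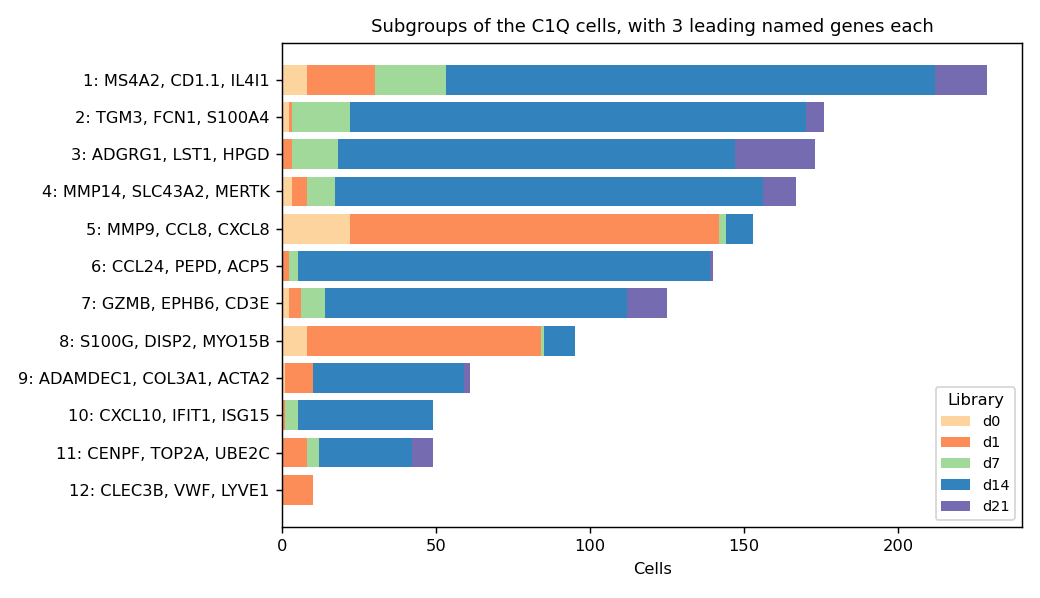
Number of C1Q cells (x axis) in each of 12 Leiden subgroups (y axis, with 3 leading genes), coloured by library. Subgroup 5 (MMP9, CCL8, CXCL8) held cells mainly of d0 and d1, subgroup 6 (CCL24, PEPD, ACP5) almost only cells of d14, and subgroups 7, 8, 9 and 12 were led by genes of other cell types.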

How the data were processed

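Gene by barcode counts of UMIs were deposited for each library as the authors made them with Cell Ranger 3.1.0, with the builds and tools named in the submitters' processing notes (susScr11, STAR). Each file held 20648 genes and no cell annotation. The study's own filtered set of cells was not used here. Barcodes with at least 200 genes were kept, and doublets and free RNA were not removed. The C1Q cells and the gene lists were chosen with earlier results of these data known. Named genes were those of the lists, the 10 largest differences in each direction for each age comparison, the leading genes against all other cells (15), FCN1 cells and MARCO macrophages (10 each way), and 5 leading genes per subgroup. With 1 library per age no test was made, and differences of at least 2-fold (0.1 per 10000 added) were counted. Intervals are exact Poisson for levels and Clopper-Pearson for shares (95%). The comparison of d14 with d1 was added after the cell numbers were seen, and the levels without the interferon-led subgroup, the ratios without cells holding cytotoxic genes and the counts by list along the C1Q level after the data were seen. Subgroups came from 1000 variable genes, 15 principal components, 15 neighbours and resolution 0.6 (leidenalg 0.10.2). Positions are from RefSeq on Sscrofa11.1. The scripts (Python 3.11.15, scipy 1.17.1) were tested on simulated data. Some genes are not reported here.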

Additional observations from a re-analysis of the deposited data

How the results depend on the processing

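With 1 library per age, no setting shows the spread between animals, and d0, with 46 cells, entered no gene count. No paired analysis was possible because each age has 1 library. The share of C1Q cells stayed highest at d14 in every setting tried. It was 1.15% at d1 and 4.90% at d14 without subgroups 7, 8, 9 and 12 (chosen after seeing the data), and 0.516% at d7, 5.07% at d14 and 0.367% at d21 with at least 10 C1Q UMIs. With at least 3 C1Q UMIs it was 6.70% at d14, and with at least 500 genes 1.05% at d7 and 6.36% at d14. After thinning to 1000 UMIs it was 2.29% at d1, 0.481% at d7, 4.97% at d14 and 0.361% at d21. Without cells holding 3 UMIs of another type it was 0.217%, 1.12%, 0.565%, 3.97% and 0.278% from d0 to d21. Without the EPCAM limit (chosen after seeing the data) it was 3.22% at d1, and below 20% mitochondrial UMIs 0.640% at d0, then above d21, and 2.28% at d1.

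Of the gene counts, adding 0.5 per 10000 gave 54 higher at d7 than d1, 17 lower at d14 than d7 and 24 higher at d21 than d14. A level limit of 0.2 tests more genes and gave, higher and lower, 282 and 253 (d7 over d1), 112 and 54 (d14 over d7), 104 and 109 (d21 over d14), 491 and 249 (d21 over d1), 259 and 171 (d14 over d1), 112 and 158, 123 and 86, and 164 and 131 (C1Q over FCN1 cells at d7, d14 and d21), and 89 and 106 (over MARCO macrophages). The mean over cells gave 141 higher at d7, 143 at d14 and 230 at d21 than at d1, and against FCN1 cells 47 higher and 133 lower at d7, 79 lower at d14 and 68 higher at d21. Without cells holding UMIs of another type, 54 genes were lower at d14 than d7, and d21 had too few cells. CCL5 at d14 over d1 (1.19, log2) was -0.21 without the 4 subgroups. CD9 (1.24) was -0.02 without the EPCAM limit. CXCL9 at d14 over d7 (-1.10) was 1.41 with at least 10 C1Q UMIs. The cause of these shifts was not tested. Of 715 log2 ratios of named genes between ages, 686 kept their side of the 2-fold line with 0.5 added, 680 without the 4 subgroups, 692 with at least 10 C1Q UMIs, 660 by the mean over cells, 673 without the EPCAM limit, 709 without mitochondrially encoded genes in the total and 715 with a level limit of 0.2, and 396 of 429 without cells holding UMIs of another type.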
